A study of Mus musculus with 6 samples.

Results

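The CREB3 family consists of CREB3, CREB3L1, CREB3L2, CREB3L3 (CREBH) and CREB3L4, basic leucine zipper transcription factors that are anchored in the membrane of the endoplasmic reticulum (ER). Their transcripts, together with those of the proteases that set them free, were examined in primary mouse hepatocytes that overexpressed nuclear CREBH. The listed genes were Creb3, Creb3l1, Creb3l2, Creb3l3 and Creb3l4, Mbtps1 for site-1 protease and Mbtps2 for site-2 protease. A gene was given a value where a feature of the array carried its symbol and no other. This held for 5 of the 7 genes, among 18820 genes measured in this way, each of the 5 with 1 feature. The only feature of Creb3 was shared with Gba2 and that of Mbtps2 with Yy2, so that no value was assigned to either gene.

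Hepatocytes were isolated from livers of 8- to 10-week-old male wildtype C57BL/6J mice and plated in 60 mm dishes. Dishes were transduced for 24 h with Ad-nuclear CREBH, an adenovirus that encodes the N-terminal, nuclear fragment of mouse CREBH, or with Ad-GFP, an adenovirus encoding green fluorescent protein, both at 100 viral particles per cell. RNA of 3 Ad-nuclear CREBH dishes and 3 Ad-GFP dishes was hybridized to Affymetrix Mouse Gene 1.1 ST arrays, 1 array per dish. Sample titles name the first virus Ad-CREBH3. All 6 dishes carried an adenovirus, and no dish without virus was analysed here. Whether the dishes came from separate animals is not stated, so that p-values measure the spread between these dishes, which may be technical.

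Members of this family are carried from the ER to the Golgi apparatus when they are activated. There site-1 protease, a serine protease, cuts the luminal side, and site-2 protease, a metalloprotease, then cuts within the membrane. The freed N-terminal fragment enters the nucleus and binds DNA, whereas the fragment encoded by Ad-nuclear CREBH needs no cleavage. CREBH is found mainly in liver and small intestine, where it is known for the control of triglyceride metabolism, fasting and acute-phase genes.

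Sequences upstream of the members were read from RefSeq (GRCm38.p6), in windows that run from 250 bases before to 50 bases after each annotated start. The table held 9 windows for 6 of the members and none for Creb3l1. The windows were searched on both strands for the cAMP response element TGACGTCA, its core TGACG, the unfolded protein response element TGACGTGG, the shorter GACGTGG, which lies within that element, and for both ER stress response elements together with their end CCACG. The shorter motif was added after the letters of the windows had been seen. The stretches below are shown because they hold matches in the 4 measured genes with a window, 1 stretch per gene; the third window of Creb3l4 is given by its positions only. TGACG, the same letters on the other strand (CGTCA) and GACGTGG are in capitals, each stretch is written along the strand of its gene, and all lie on the minus strand.
Creb3l3, the second of 2 starts, chr10:81092570-81092841: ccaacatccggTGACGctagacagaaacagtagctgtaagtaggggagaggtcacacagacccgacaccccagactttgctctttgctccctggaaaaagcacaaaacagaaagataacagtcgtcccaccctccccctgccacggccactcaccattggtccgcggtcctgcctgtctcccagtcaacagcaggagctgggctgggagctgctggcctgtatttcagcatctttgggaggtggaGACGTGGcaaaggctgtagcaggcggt
Creb3l4, the second of 3 starts, chr3:90243341-90243385: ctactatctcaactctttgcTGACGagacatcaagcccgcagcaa
Creb3l2, chr6:37442320-37442364: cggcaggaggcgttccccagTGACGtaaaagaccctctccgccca
Mbtps1, chr8:119558809-119558853: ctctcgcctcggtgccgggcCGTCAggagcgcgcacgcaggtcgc

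In Creb3l3 the TGACG began at -239 and the GACGTGG at -5 from the second start, which lies inside the gene, while the window at the first start held none of the motifs. TGACG began at -222 in Creb3l4 and at -196 in Creb3l2. In Mbtps1 it lay on the other strand, at -72. The third window of Creb3l4 held TGACG on the other strand at -194 and -63, and its first window held none of the motifs. In Creb3 a GACGTGG began at -107, and Mbtps2 held none of the motifs. Of 32851 windows of this length in the RefSeq table, 20.8% held TGACG and 2.42% held GACGTGG. The complete elements TGACGTCA and TGACGTGG, found in 1.79% and 0.676% of all windows, were in no window of the members. Neither were the ER stress response element and the ER stress response element II, with shares of 0.119% and 0.0365%, whereas CCACG, which overlaps with GACGTGG on the other strand, was common (32.8%). Such matches describe letters within these windows and are not sites of binding.

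**Figure D1:**
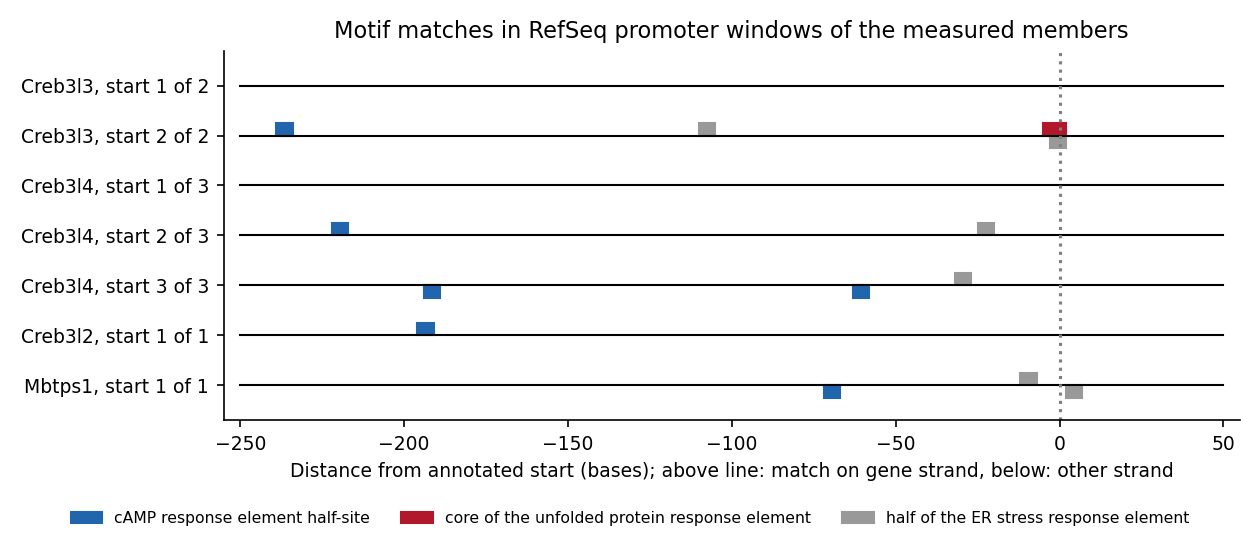
Motif matches in the RefSeq windows of the 4 measured genes with an annotated start. The horizontal axis gives the distance from the start in bases, blocks above a line are on the strand of the gene and blocks below it on the other strand; blue marks TGACG, red GACGTGG and grey CCACG. The red block is in the second window of Creb3l3, and the first windows of Creb3l3 and Creb3l4 are empty.

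Expression is given as the deposited log2 values of robust multiarray averaging (RMA), in which a difference of 1 is a doubling. On the individual arrays the median over all genes was 5.05 to 5.12 in the Ad-nuclear CREBH group and 5.12 to 5.30 in the Ad-GFP group. Olfactory receptor genes, which hepatocytes are not known to use, marked the level of silent genes, and 95% of 990 such genes were below 3.51 to 3.62 on the Ad-nuclear CREBH arrays and below 3.44 to 3.56 on the Ad-GFP arrays. The array of replicate 1 correlated less with the other arrays of its group than those did, with means of 0.991 against 0.994 in the Ad-nuclear CREBH group and 0.986 against 0.991 in the Ad-GFP group. Groups were compared with limma. The terms rose and fell are used for genes with an adjusted p under 0.05, the adjustment being that of Benjamini and Hochberg over the 18820 genes. At this threshold 19.2% of all genes rose and 18.2% fell, 37.4% in both directions together. With 3 dishes per group, the smallest p of an exact permutation test is 0.1.

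Of the 5 genes with a value of their own, Creb3l3 and Creb3l4 rose, Creb3l2 fell, and Creb3l1 and Mbtps1 did not pass. The methods name a p under 0.001, a fold change threshold for each direction and a minimum expression value of 300. They were read here as a p before adjustment, a fold change of more than 2 or less than 0.5 and a linear mean above 300 in at least 1 group. These criteria selected 4.91% of all genes as upregulated and 3.1% as downregulated. Among the 5 genes they took Creb3l3, as upregulated. The arrays of the groups did not overlap for 4 of the 5 genes, against 49.4% of all genes, and 5 genes are too few to set these shares apart.

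Creb3l3, which encodes CREBH, lies at chr10:81084329-81098872 (GRCm38.p6). Its log2 values were 9.97, 10.46 and 10.59 on the Ad-nuclear CREBH arrays, against 8.49, 8.02 and 8.21 on the Ad-GFP arrays. Every Ad-nuclear CREBH array was above every Ad-GFP array, with a gap of 1.48, and replicate 1 was the lowest Ad-nuclear CREBH array and the highest Ad-GFP array. The log2 fold change was 2.10 (SE 0.19, 95% confidence interval 1.66 to 2.54, adjusted p = 8.98e-05 from limma), a 4.29-fold rise. On the linear scale the group means were 1300 and 303 in Ad-nuclear CREBH and Ad-GFP dishes, so that the Ad-GFP mean was just above the expression minimum of 300. In all, 482 of the 18820 genes had a larger fold change than Creb3l3. The transcript brought in by the virus and that of the mouse gene cannot be told apart in this value. The virus encodes only the N-terminal part of the protein, while the feature summarizes probes along the transcript, and single probes were not analysed here.

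Creb3l4 encodes a family member described mainly in prostate and testis. Its log2 values were 5.26, 5.47 and 5.23 on the Ad-nuclear CREBH arrays, against 4.57, 4.24 and 4.17 on the Ad-GFP arrays. The groups were separated by 0.66, and the Ad-nuclear CREBH arrays lay close together (SD 0.128, against 0.211 on the Ad-GFP arrays). The log2 fold change of 0.99 (SE 0.16, 95% confidence interval 0.62 to 1.36, adjusted p = 0.00172) corresponds to a 1.99-fold rise. In Ad-nuclear CREBH dishes the linear mean of Creb3l4 was 39.9 and in Ad-GFP dishes 20.1, both far below the minimum of 300, so that the gene was outside the criteria of the methods. In a dim gene such as this one the fold change can be understated. The gene lies at chr3:90237498-90244582.

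Creb3l2 encodes BBF2H7, which is known in cartilage for the control of the secretory machinery, and lies at chr6:37327255-37442276. Its log2 values were 7.26, 7.34 and 7.34 on the Ad-nuclear CREBH arrays, against 8.05, 7.93 and 7.89 on the Ad-GFP arrays. Replicates differed little in either group (SD 0.048 and 0.0836 in Ad-nuclear CREBH and Ad-GFP dishes), and the groups were 0.55 apart. The log2 fold change was -0.65 (SE 0.12, 95% confidence interval -0.93 to -0.36, adjusted p = 0.00393), a level 1.57-fold lower in Ad-nuclear CREBH dishes.

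Creb3l1, at chr2:91982328-92024170, encodes OASIS, which is known in osteoblasts for the control of collagen genes. Its log2 values were 3.90, 3.83 and 3.71 on the Ad-nuclear CREBH arrays and 3.73, 4.25 and 3.55 on the Ad-GFP arrays. The groups overlapped, with both the highest and the lowest value in the Ad-GFP group, and on each array Creb3l1 was above the level below which 95% of olfactory receptor genes lay, most clearly so on Ad-GFP replicate 2. The log2 difference was -0.03 (SE 0.19, adjusted p = 0.924) with a 95% confidence interval of -0.46 to 0.40. Its sign changed with the median centring of the arrays (0.11) and without Ad-GFP replicate 2 (0.18) or Ad-nuclear CREBH replicate 3 (0.02), and no direction is given to it.

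**Figure D2:**
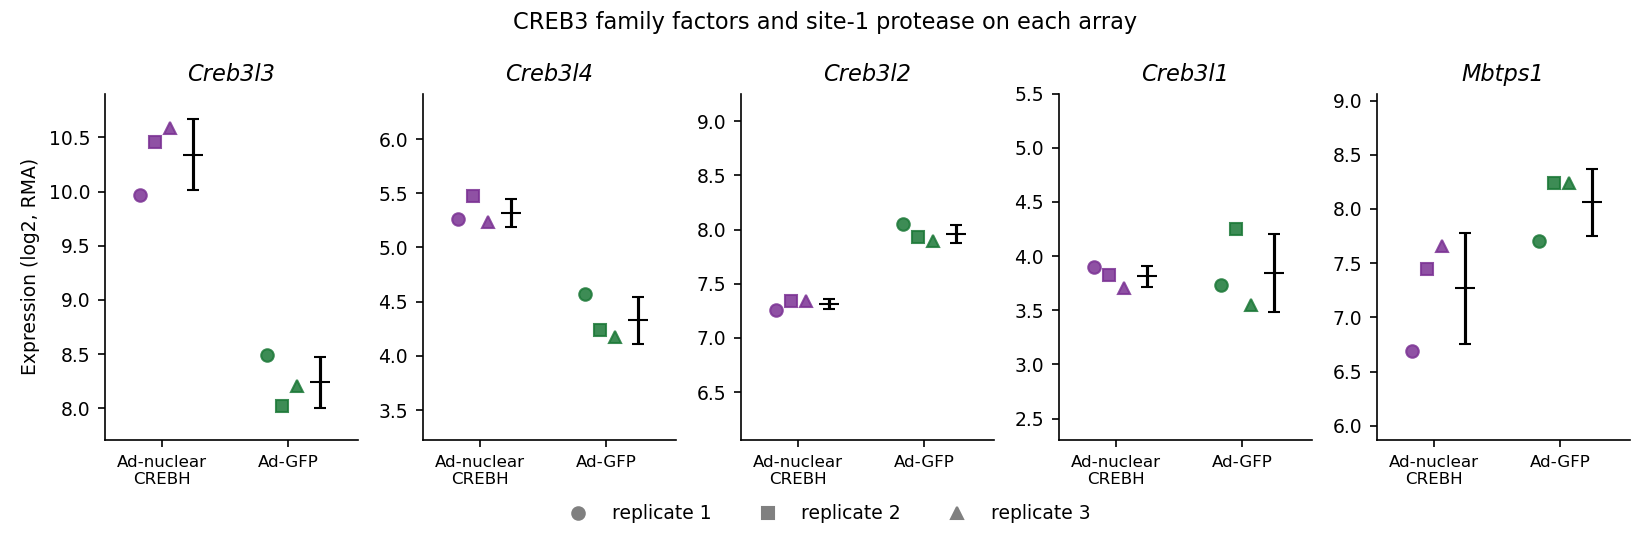
Log2 RMA expression of the measured family members and of Mbtps1 on each array, in panels with axes of equal span but different origin. Symbols are the 3 replicates of each group, Ad-nuclear CREBH in purple and Ad-GFP in green, and the black bars are the mean ± SD; the groups are separate for Creb3l3, Creb3l4 and Creb3l2, nearly touch for Mbtps1 and overlap for Creb3l1.

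Mbtps1 encodes site-1 protease, which makes the first cut in these factors, and lies at chr8:119508151-119558864. Its log2 values were 6.69, 7.45 and 7.66 on the Ad-nuclear CREBH arrays, against 7.70, 8.24 and 8.24 on the Ad-GFP arrays. Replicate 1 was the lowest array of both groups, and the highest Ad-nuclear CREBH array was only 0.04 below the lowest Ad-GFP array. With SDs of 0.512 and 0.311 in Ad-nuclear CREBH and Ad-GFP dishes, the log2 difference of -0.79 (SE 0.27, 95% confidence interval -1.42 to -0.17) had an unadjusted p of 0.0193 and did not pass after adjustment (adjusted p = 0.0514 from limma). It passed without replicate 1 of both groups (-0.68, adjusted p = 2.77e-04), without Ad-GFP replicate 1 (-0.97, adjusted p = 0.0237) and without Ad-nuclear CREBH replicate 3 (-0.99, adjusted p = 0.039). Without Ad-nuclear CREBH replicate 1, the lowest array, it was -0.50 (adjusted p = 0.105). The difference also passed with array weights (-0.74, adjusted p = 0.00567), with quantile normalization (-0.78, adjusted p = 0.0443) and when only genes above the median level were tested (adjusted p = 0.0397). It was below 0 in each of these fits. Mbtps2, the gene of site-2 protease at chrX:157547822-157598715, and Creb3, which encodes the factor also known as Luman and lies at chr4:43562658-43567061, were not assigned values.

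Over the alternatives for processing and over the arrays left out, Creb3l3 passed in 16 of 16 fits with log2 fold changes of 1.98 to 2.41, and Creb3l2 in 16 of 16 with -0.68 to -0.51. Creb3l4 passed in 15 of 15 fits, with 0.91 to 1.14. Mbtps1 passed in 7 of 16, with -0.99 to -0.50, and Creb3l1 in 0 of 15, with -0.18 to 0.18 and adjusted p of 0.435 to 0.954. The median over all genes was 0.039 and became 0.181 with median-centred arrays, a shift that was small beside the changes of Creb3l3 and Creb3l4.

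**Figure D3:**
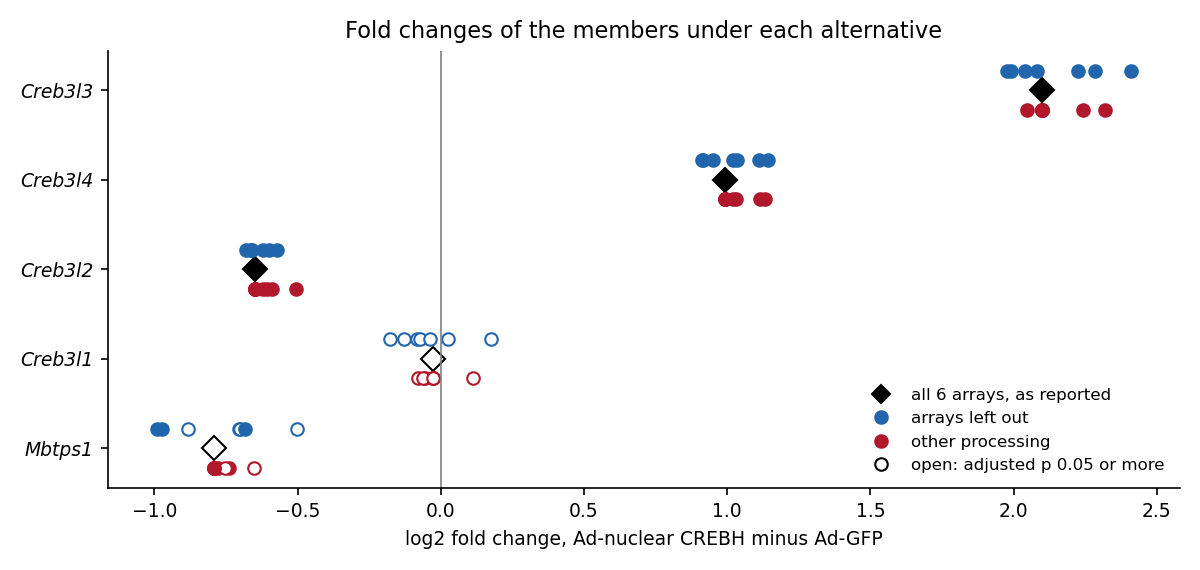
Log2 fold changes, Ad-nuclear CREBH minus Ad-GFP, of each measured gene with all 6 arrays (black diamonds), with arrays left out (blue) and with other processing (red). Open symbols have an adjusted p of 0.05 or more; Creb3l3, Creb3l4 and Creb3l2 have filled symbols throughout, Mbtps1 has both kinds and Creb3l1 lies on both sides of 0.

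Site-1 and site-2 proteases also act on other proteins, and these clients, with the factors that escort or retain them, form the nearest part of the pathway. Of 10 listed genes, all measured, 4 rose and 3 fell. This was 70.0% past the threshold, beside 37.4% of all genes, with a median log2 fold change of 0.05 against 0.039 over all genes. All 10 genes were above the median level of all genes (5.24), and such genes passed more often. Of 9410 genes above the median level, tested by themselves, 2895 rose and 2967 fell, so that most of them passed. The 70.0% of this list is better set beside that share than beside 37.4%. The shares of the lists below are likewise given without allowance for level, and the lists were chosen with earlier results of these data known. The ER stress factors Atf6 and Atf6b, which the same proteases release, rose with log2 fold changes of 0.65 (SE 0.10, adjusted p = 0.0014) and 1.04 (SE 0.16, adjusted p = 0.00125). Atf6 was at 10.88, 10.86 and 10.89 on the Ad-nuclear CREBH arrays, against 10.41, 10.14 and 10.13 on the Ad-GFP arrays. Srebf1, which encodes the lipogenic factor SREBP-1, rose by 1.41 (SE 0.25, adjusted p = 0.00273). Fam20c, a Golgi kinase that site-1 protease processes, rose by 1.14 (SE 0.11, adjusted p = 1.11e-04).

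Scap, which escorts SREBP proteins from the ER to the Golgi proteases, had the largest fall of this list. Its log2 values were 7.51, 7.28 and 7.25 on the Ad-nuclear CREBH arrays, against 9.02, 9.39 and 9.30 on the Ad-GFP arrays, which is a 3.71-fold lower level in Ad-nuclear CREBH dishes (log2 fold change -1.89, SE 0.15, adjusted p = 4.74e-05). The groups were far apart. Insig2, which retains SCAP in the ER, fell by 1.14 (SE 0.20, adjusted p = 0.00269), and Gnptab, a Golgi phosphotransferase that site-1 protease cleaves, fell by 1.37 (SE 0.22, adjusted p = 0.00156). Its values were 6.37, 6.81 and 6.64 on the Ad-nuclear CREBH arrays and 7.54, 8.25 and 8.14 on the Ad-GFP arrays. Insig1, which acts like Insig2, averaged 10.96 in Ad-nuclear CREBH dishes and 11.16 in Ad-GFP dishes and did not pass (adjusted p = 0.227). Srebf2, which encodes the cholesterol-regulating SREBP-2, had a log2 difference of -0.32 (adjusted p = 0.314). Without Ad-GFP replicate 1 the difference of Srebf2 was -0.56 and passed (adjusted p = 0.018), as did that of Spring1, a cofactor of site-1 protease, at 0.56 (adjusted p = 0.00807). With all arrays Spring1 was at 0.31 (adjusted p = 0.328). Both genes also passed with array weights, Srebf2 at -0.42 (adjusted p = 0.0262) and Spring1 at 0.54 (adjusted p = 0.00757).

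**Figure D4:**
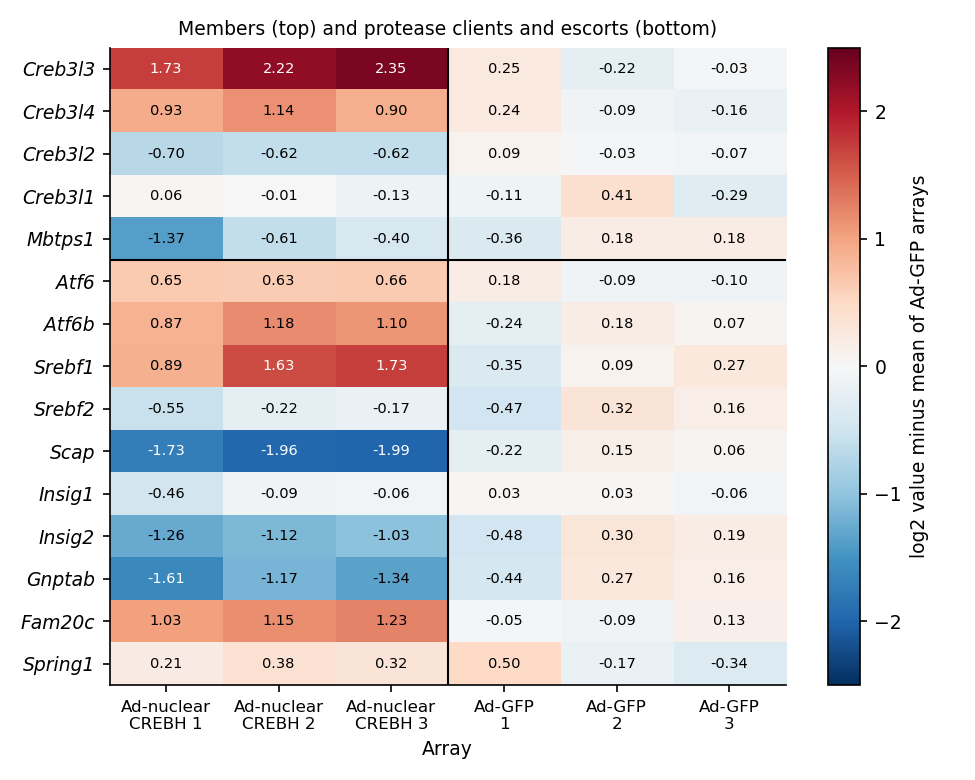
Log2 values on each array minus the mean of the Ad-GFP arrays, for the measured members (above the line) and the protease clients and escorts (below it). Columns are the Ad-nuclear CREBH arrays 1 to 3 and then the Ad-GFP arrays 1 to 3, red is higher and blue is lower; Scap is at -1.73 to -1.99 and Creb3l3 at 1.73 to 2.35 on the Ad-nuclear CREBH arrays, and Mbtps1 is lowest on the array numbered 1 of each group.

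Site-1 protease is also a member of the proprotein convertase family, which cuts secreted and membrane proteins in the secretory pathway. Of the 5 convertases measured, 3 rose and 1 fell (80.0%, against 37.4% of all genes, median 0.59). Furin, the broadly acting Golgi convertase, was at 11.41, 12.06 and 11.96 on the Ad-nuclear CREBH arrays, against 10.91, 10.39 and 10.37 on the Ad-GFP arrays, and rose by 1.25 (SE 0.20, adjusted p = 0.00169). Furin, which belongs to the same protease family as Mbtps1, had a log2 fold change of the opposite sign, the difference between them not being tested. Pcsk4, a convertase known from germ cells, rose by 1.09 (SE 0.21, adjusted p = 0.00412). Pcsk6 rose by 0.59 (adjusted p = 0.0197), a call that was lost without Ad-nuclear CREBH replicate 2 (adjusted p = 0.0803) or 3 (adjusted p = 0.0775). Pcsk5 fell by 0.93 (adjusted p = 0.013), which was lost without Ad-nuclear CREBH replicate 2 (adjusted p = 0.0538). Pcsk1, the convertase of endocrine cells, was at the level of olfactory receptor genes, with 3.04 and 2.97 in Ad-nuclear CREBH and Ad-GFP dishes (adjusted p = 0.655).

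Aspartyl proteases that cut within membranes, such as signal peptide peptidases, do for other membrane proteins what site-2 protease does for this family. Of the 6 genes measured, 2 rose and 2 fell (66.7%, against 37.4% of all genes, median -0.13). Hm13, which encodes signal peptide peptidase, was at 11.41, 11.32 and 11.34 on the Ad-nuclear CREBH arrays, against 10.52, 10.70 and 10.64 on the Ad-GFP arrays, and rose by 0.73 (SE 0.08, adjusted p = 2.71e-04). Psen2, a catalytic subunit of gamma-secretase, rose by 0.95 (SE 0.19, adjusted p = 0.00497). Sppl2b, a signal peptide peptidase-like protease, fell by 1.28 (SE 0.18, adjusted p = 8.04e-04). Its relative Sppl2a fell by 0.74 (adjusted p = 0.0188), which was lost without Ad-GFP replicate 2 (adjusted p = 0.0691), Ad-GFP replicate 3 (adjusted p = 0.0689) or Ad-nuclear CREBH replicate 1 (adjusted p = 0.061). Sppl3 (7.79 and 8.00, adjusted p = 0.316) and Sppl2c (3.49 and 3.54, adjusted p = 0.768, Ad-nuclear CREBH and Ad-GFP means) did not pass.

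Proteins that bind family members or control their turnover were listed as a further group. All 13 genes were measured, of which 5 rose and 4 fell (69.2%, against 37.4% of all genes, median -0.04). Ppara, the nuclear receptor of the fasting response and a partner of CREBH, was at 9.60, 9.88 and 9.93 on the Ad-nuclear CREBH arrays, against 6.59, 6.39 and 7.08 on the Ad-GFP arrays. The groups were far apart, and Ppara rose by 3.11 (SE 0.20, adjusted p = 2.35e-05), above the fold change of Creb3l3 itself, although the difference between these genes was not tested. Crebzf, a leucine zipper protein that binds CREB3, rose by 1.21 (SE 0.14, adjusted p = 3.06e-04), and Hcfc2, a relative of the CREB3-binding cell cycle factor HCFC1, by 0.95 (SE 0.12, adjusted p = 4.14e-04). Sel1l, a subunit of the ER-associated degradation complex, rose by 0.81 (SE 0.17, adjusted p = 0.00551). Crebrf, known as a negative regulator of CREB3, fell by 1.09 (SE 0.15, adjusted p = 8.34e-04), and Nr3c1, the glucocorticoid receptor, was 2.14-fold lower (SE 0.19 on the log2 scale, adjusted p = 0.0025). Kat2b, an acetyltransferase, fell by 1.03 (SE 0.20, adjusted p = 0.00429), and Fbxw7, a ubiquitin ligase subunit, by 0.80 (SE 0.15, adjusted p = 0.00432). Hcfc1 averaged 9.13 and 9.36 (adjusted p = 0.426) and Syvn1, the ligase that acts with Sel1l, 7.68 and 7.76 (adjusted p = 0.755) in Ad-nuclear CREBH and Ad-GFP dishes, and neither passed.

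**Figure D5:**
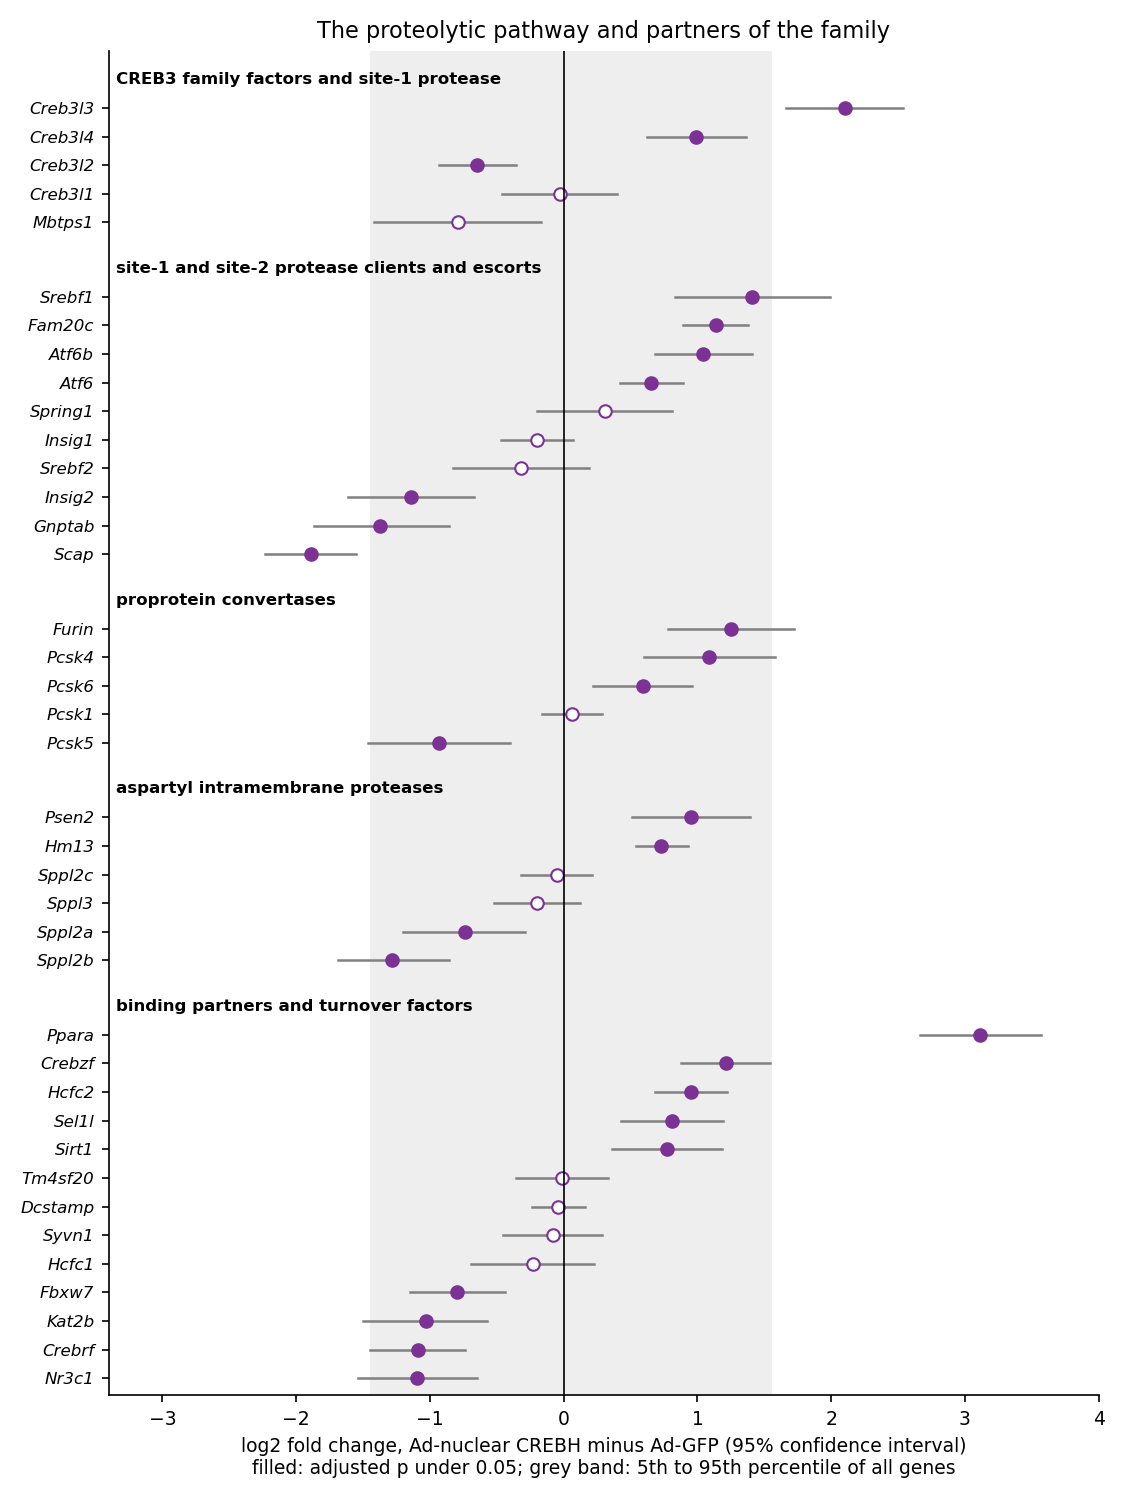
Log2 fold changes with 95% confidence intervals, Ad-nuclear CREBH minus Ad-GFP, of the members and of 4 lists of related proteases, clients and partners. Filled points have an adjusted p under 0.05, and the grey band runs from the 5th to the 95th percentile of all genes (-1.44 to 1.55); Creb3l3, Ppara and Scap lie outside the band.

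Other CREB and ATF factors, which share the leucine zipper but are not tied to the membrane by the same anchor, moved in both directions. Of 12 listed genes 10 were measured, 3 rose and 3 fell (60.0%, against 37.4% of all genes, median -0.27). Atf5 and Ddit3 had features shared with other genes and were not analysed here. Xbp1, the transcription factor of the unfolded protein response, was at 12.30, 12.39 and 12.36 on the Ad-nuclear CREBH arrays, against 11.07, 10.86 and 11.19 on the Ad-GFP arrays, and rose by 1.31 (SE 0.09, adjusted p = 3.69e-05). The feature does not separate spliced from unspliced Xbp1. Crem rose by 0.67 (SE 0.14, adjusted p = 0.00723). Atf4, a factor of the integrated stress response, rose by 0.40 (adjusted p = 0.0343), a call that was lost under quantile normalization (adjusted p = 0.13) and without Ad-GFP replicate 2 (adjusted p = 0.127) or 3 (adjusted p = 0.113), or without Ad-nuclear CREBH replicate 1 (adjusted p = 0.0824), 2 (adjusted p = 0.0796) or 3 (adjusted p = 0.0914). Creb5 fell, with 6.15, 6.95 and 7.06 on the Ad-nuclear CREBH arrays, against 8.94, 8.73 and 8.52 on the Ad-GFP arrays (log2 fold change -2.01, SE 0.25, adjusted p = 4.28e-04). Crebl2 fell by 1.28 (SE 0.21, adjusted p = 0.00169) and Atf2 by 1.19 (SE 0.10, adjusted p = 7.81e-05). Atf3, a stress-induced factor, averaged 7.96 in Ad-nuclear CREBH dishes and 9.02 in Ad-GFP dishes (adjusted p = 0.109), where Ad-GFP replicate 1 stood at 10.23. With array weights the difference of Atf3 was -0.69 and passed (adjusted p = 0.043). Atf7 averaged 7.52 and 7.75 in Ad-nuclear CREBH and Ad-GFP dishes (adjusted p = 0.231).

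Genes that earlier work had linked to the other family members were also examined. Of 7 listed, all measured, 5 rose and 0 fell (71.4%, against 37.4% of all genes, median 1.40). Sec23a and Sec24d encode coat proteins of the vesicles that leave the ER and have been described as targets of CREB3L2. Sec23a was at 10.95, 11.08 and 11.08 on the Ad-nuclear CREBH arrays, against 9.55, 9.62 and 9.73 on the Ad-GFP arrays, and rose by 1.40 (SE 0.09, adjusted p = 2.91e-05). Sec24d rose by 1.88 (SE 0.13, adjusted p = 3.35e-05). Both rose while Creb3l2 itself was lower in the same dishes, and a link between these changes was not tested. Arf4, a Golgi GTPase linked to CREB3, rose by 1.40 (SE 0.12, adjusted p = 7.23e-05) and Edem1, a lectin of ER-associated degradation, by 1.37 (SE 0.11, adjusted p = 4.53e-05). Herpud1, the other gene that passed, rose by 0.59 (adjusted p = 0.015), which was lost without Ad-GFP replicate 2 (adjusted p = 0.053) or Ad-nuclear CREBH replicate 2 (adjusted p = 0.0647) or 3 (adjusted p = 0.0623).

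The collagen genes Col1a1 and Col1a2, of which the first is a known target of CREB3L1 in osteoblasts, did not pass. Col1a1 was at 5.02, 7.30 and 7.51 on the Ad-nuclear CREBH arrays, against 5.25, 4.90 and 4.77 on the Ad-GFP arrays (log2 difference 1.63, SE 0.59, adjusted p = 0.0619). Col1a2 was at 4.42, 5.76 and 6.02 on the Ad-nuclear CREBH arrays, against 4.37, 4.40 and 4.35 on the Ad-GFP arrays (1.02, SE 0.37, adjusted p = 0.0635). For both genes Ad-nuclear CREBH replicates 2 and 3 were high and replicate 1 was close to the Ad-GFP arrays. Without that replicate both differences passed, at 2.43 (adjusted p = 2.19e-04) for Col1a1 and 1.51 (adjusted p = 4.98e-04) for Col1a2. They also passed with array weights (adjusted p = 5.90e-04 for Col1a1 and 0.00121 for Col1a2) and with median-centred arrays (adjusted p = 0.0342 and 0.0285). Of 10 other stellate cell and fibroblast markers 1 rose (Ecm1, log2 fold change 0.98, adjusted p = 0.0337) and 1 fell (Reln, -1.90, adjusted p = 1.62e-04). Their summed linear levels were 477 to 506 in Ad-nuclear CREBH dishes and 308 to 511 in Ad-GFP dishes. Ecm1, the brightest of them, averaged 8.45 in Ad-nuclear CREBH dishes and 7.46 in Ad-GFP dishes and added most to these sums. Lrat, Pdgfrb and Lum were at the level of olfactory receptor genes. The part of such cells in the collagen values was not tested.

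Genes linked to CREBH itself by earlier work numbered 9, all measured, of which 5 rose and 3 fell (88.9%, against 37.4% of all genes, median 0.55). The lipid droplet gene Cidec, the hormone gene Fgf21, the lipoprotein lipase activator gene Apoc2 and the gluconeogenic Pck1 had the largest rises, with log2 fold changes of 3.70, 3.28, 1.85 and 0.90. Apoa4, the other gene that rose, did so by 0.55 (adjusted p = 0.00139). It averaged 13.50 in Ad-nuclear CREBH dishes and 12.95 in Ad-GFP dishes, near the highest values on the arrays (13.46 to 13.56). Cidec was at 12.13, 12.28 and 12.36 on the Ad-nuclear CREBH arrays, against 9.42, 6.70 and 9.56 on the Ad-GFP arrays, and without the low Ad-GFP replicate 2 its log2 fold change was 2.77 (adjusted p = 6.17e-05). For Pck1 the groups overlapped, and its call (adjusted p = 0.0443) was lost without Ad-GFP replicate 2 (adjusted p = 0.112) or 3 (adjusted p = 0.135) or Ad-nuclear CREBH replicate 2 (adjusted p = 0.125) or 3 (adjusted p = 0.143). Crp and Apcs, genes of the acute-phase pentraxins, and Hamp, the hepcidin gene, fell, with log2 fold changes of -5.08, -3.26 and -1.96. G6pc1, which encodes glucose-6-phosphatase, averaged 4.12 and 3.96 in Ad-nuclear CREBH and Ad-GFP dishes (adjusted p = 0.615).

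Markers of liver cell types were compared as a check of the cells. The brightest hepatocyte markers were high in both groups. Alb was at 13.27 and Serpina1c at 12.84 in Ad-nuclear CREBH dishes, against 13.28 and 12.76 in Ad-GFP dishes. Cps1 was much lower, at 6.44 in Ad-nuclear CREBH dishes and 7.65 in Ad-GFP dishes. Alb was close to the highest values on the arrays (13.46 to 13.56). Of the 8 measured, 1 rose and 2 fell, namely Apoa1 (0.74, adjusted p = 5.63e-05), Ahsg (-0.75, adjusted p = 0.00104) and Cps1 (-1.21, adjusted p = 0.00165). Their summed linear levels, to which the brightest genes add most, were 32900 to 36500 and 34100 to 34500 in Ad-nuclear CREBH and Ad-GFP dishes. Of 12 macrophage markers 1 rose and 3 fell, with summed levels of 1260 to 2670 in Ad-nuclear CREBH dishes, against 2730 to 3730 in Ad-GFP dishes. Cd68 (-1.13, adjusted p = 0.0215), Lyz2 (-0.57, adjusted p = 0.0403) and Cd5l (-0.64, adjusted p = 0.0374) fell, Csf1r rose (0.61, adjusted p = 0.0254), and the median over the 12 was 0.05. The sum was mostly that of Cd68, and without it the summed levels were 299 to 374 in Ad-nuclear CREBH dishes and 303 to 409 in Ad-GFP dishes. Of 6 cholangiocyte markers 1 rose and 2 fell (1160 to 1260, against 1670 to 2280). Epcam rose by 1.74 (adjusted p = 2.48e-04), Cdh1 (-1.24) and Krt19 (-1.06, adjusted p = 0.00409) fell, and Sox9 was at 0.58 (adjusted p = 0.278). The sum was mostly that of Cdh1, the brightest of them, at 9.40 in Ad-nuclear CREBH and 10.64 in Ad-GFP dishes. No sum was taken without it. Of 10 endothelial markers 1 rose (497 to 561, against 335 to 456), namely Egfl7 by 1.86, while Cdh5 averaged 6.62 and 6.61. The 9 that did not pass had log2 differences of -0.46 (Lyve1) to 0.23 (Ptprb). The higher sums in Ad-nuclear CREBH dishes cannot be separated from the 3.63-fold rise of Egfl7, since no sum was taken without that gene. Of 7 lymphocyte markers 0 passed (54.6 to 58.0, against 54.9 to 57.2), the brightest, Cd8a and Cd3e, had log2 differences of -0.07 and 0.03, and the other 5 were at the level of olfactory receptor genes. In such mixed samples fewer cells of a type and less RNA per cell cannot be told apart. The part of these cells in the values of the members was not tested.

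Genes whose pattern over the 6 arrays was most like that of each member were found by the root mean square difference of log2 values, each gene centred on its Ad-GFP mean, among 9410 genes above the median level. For Creb3l3 these were Chrm4, a muscarinic acetylcholine receptor gene, Dtx1, a ubiquitin ligase gene of the Notch pathway, and Mical1, with differences of 0.0471, 0.0756 and 0.0847. For Creb3l4 they were Tpst2, a Golgi sulfotransferase gene, Ykt6, a vesicle fusion gene, and Srfbp1 (0.051, 0.0577 and 0.0631). For Creb3l2 they were Ttc9c, the sulfiredoxin gene Srxn1 and the RNA-binding Ybx1 (0.0347, 0.0348 and 0.0398). These patterns were matched more closely than that of Mbtps1, for which Kif1c, Klhl20 and the histone methyltransferase gene Kmt2b were nearest (0.0988, 0.102 and 0.104). Nudt8, Vopp1 and 1110038F14Rik were nearest to Creb3l1 (0.0925, 0.128 and 0.141). With 6 arrays such likeness describes these dishes only.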

How the data were processed

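Gene expression was measured in 6 dishes of primary mouse hepatocytes, 3 per group, grouped by the sample labels. The values deposited by the authors are log2 expression from RMA, a procedure of background correction, normalization across arrays and summary of probes. Which array definition they used is not given here, since no source names it. The labels and the methods name different reagents for RNA extraction and labeling. Symbols came from the platform annotation: of 35556 features, 21218 had 1 symbol and were used, 1881 had several and 12457 had none. For 1386 genes with several features the one of highest mean was taken. RMA gives no detection flag. Precision is limited by the number of arrays.

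The limma package (version 3.58.1, under R 4.3.3) was used for linear models, with eBayes set to an intensity trend and 4 residual and 3.97 prior degrees of freedom. The fit was tested on simulated data. The criteria of the methods were applied to the same fit. Lists are described by counts and medians without a set test. In each list the text names up to 4 rises, 4 falls and the 2 brightest genes that did not pass, in marker lists the 2 brightest, and the 3 nearest patterns per member. Spring1, Herpud1, Apoa4, Csf1r, Cd5l, Lrat, Pdgfrb, Lum, Epcam, Krt19, Apoa1, Ahsg and Cps1 were added after their values were seen. Members and lists were chosen with earlier results of these data known. The alternatives were changes to the prior of the variance, weights for arrays, the replicate block, normalization, features per gene, low values, the expression minimum and arrays left out. Promoter windows and coordinates came from RefSeq (GRCm38.p6), and figures were drawn with matplotlib 3.10.9.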

Additional observations from a re-analysis of the deposited data

How the results depend on the processing

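Creb3l3, Creb3l4 and Creb3l2 kept their direction and their side of the threshold in every alternative that gave them a value. Creb3l1 and Creb3l4 are below the median level and had no value among genes above it, where 1 member rose. The difference of Creb3l1 was above 0 with median-centred arrays (0.1131), without Ad-nuclear CREBH replicate 3 (0.02381) and without Ad-GFP replicate 2 (0.175), with a range of -0.1766 to 0.175 over arrays left out. Mbtps1 passed with array weights (-0.7384, adjusted p = 0.00567), quantile normalization (-0.7798, adjusted p = 0.0443) and only genes above the median level (-0.7929, adjusted p = 0.0397, fewer genes being tested), and each of these gave 2 members that fell instead of 1. With arrays left out its difference was -0.9911 to -0.5041 (adjusted p 2.77e-04 to 0.147; -0.6834 without replicate 1 of both groups), with 1 to 2 members that fell. With the replicate number as a block (replicate block) Mbtps1 was at -0.7929 and passed (adjusted p = 0.00518), so that 2 members fell. Deviations of same-numbered dishes from their group means had correlations of 0.178, 0.0729 and 0.139, and Ad-nuclear CREBH replicate 2 correlated best with Ad-GFP replicate 3 (0.120). Replicate 1 of either group had correlations of -0.173 to -0.102 with the other numbers of the opposite group. Deviations within a group sum to 0, so that these values depend on each other. Whether the numbers pair the dishes is not stated. Under the block Atf3 passed (adjusted p = 0.0281) and Pck1 did not (adjusted p = 0.0782). The block left 3715 genes that rose and 3705 that fell, against 3615 and 3427. Among lists, 0 convertases fell above the median level, where Pcsk5 (3.82 and 4.75 in Ad-nuclear CREBH and Ad-GFP dishes) had no value. With arrays left out 0 to 1 convertases, 1 to 2 aspartyl proteases and 3 to 5 other CREB and ATF factors fell. The causes of the other changes were not tested. With median-centred arrays 4814 genes rose and 2852 fell. The low signal of Creb3l1 and the spread of Mbtps1 over arrays limited what could be called.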

Other observations

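The features that Creb3 and Mbtps2 shared with another gene cannot be assigned to either gene of the pair and were not tested. The feature of Gba2 and Creb3 was at 10.04, 10.54 and 10.55 on the log2 scale on the Ad-nuclear CREBH arrays and at 9.72, 10.15 and 10.18 on the Ad-GFP arrays, a difference of 0.36 with groups that overlapped. The feature of Yy2 and Mbtps2 was at 6.81, 6.77 and 6.86 on the Ad-nuclear CREBH arrays, against 7.13, 7.33 and 7.17 on the Ad-GFP arrays, a difference of -0.39 with groups that did not overlap. Gba2 encodes a glucosylceramidase and Yy2 a zinc finger transcription factor.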
